A study of Mus musculus with 12 samples.

Results

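Solute carriers and ATP-binding cassette (ABC) proteins were followed in mouse liver after doxorubicin with and without the compounds K35 and K27. Members were taken by gene symbol, as every gene of the table whose name begins with Slc followed by a number and a letter, with Slco, or with Abca to Abcg followed by a number. This gave 100 of 3799 genes, 81 solute carriers and 19 ABC genes, of which 91 reached a mean of 1 FPKM (a read level divided by transcript length and library size) and were tested among 3317 genes. The authors selected the genes of this table, so counts and percentages refer to that selection. Of 48 transporters listed for their role in liver, 21 were in it, and the others, among them the main sodium-dependent bile acid importer Slc10a1, the bile salt export pump Abcb11 and the glucose transporter Slc2a2, were not analysed here.

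The 12 livers came from male C57BL/6J mice, given as 8 weeks old when injected, with 3 libraries in each of 4 groups. One group, Saline (called vehicle in the labels), was injected with saline, and the other 3 with doxorubicin, a DNA-damaging chemotherapy agent, at 10 mg/kg into the peritoneum on day 0 and day 7. Dosing into the stomach ran on alternate days, beginning 2 days after the first injection. It gave 50 mg/kg K35 in DOX + K35, 50 mg/kg of its analog K27 in DOX + K27 and vehicle in DOX. The paper describes no such dosing for Saline. The livers were collected on day 20. The design asks how doxorubicin changed the liver and whether either compound changed it further. All 3 doxorubicin groups share the drug, and no group received a compound without it. The labels number the livers of a group as replicates without naming the animals, so p-values measure the spread between these samples.

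Solute carriers move amino acids, sugars, metals, lipids and ions across the plasma membrane and the membranes of organelles, mostly down a gradient or coupled to an ion. ABC proteins use ATP to push lipids, bile constituents and drugs out of the cell or into peroxisomes and mitochondria. In the hepatocyte, importers of the blood-facing membrane, mitochondrial carriers of the Slc25 family and exporters of the bile-facing membrane together set what the liver takes up, burns and secretes.

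The 250 bases upstream of the annotated start are printed for 4 members with a single start in the RefSeq promoter table (GRCm38.p6). Slc25a34 and Slc26a10 are the members called as different between DOX + K35 and DOX + K27 on the deposited FPKM. Slc3a1 and Slc25a13 are among the members with large rises in DOX + K35, where Abcg2 and Slc16a5 rose more. Each runs 5′ to 3′ on the strand of its gene. Capitals mark, on either strand, the half-site AGGTCA of nuclear receptors, the E-box CACGTG, the GC box GGGCGG and the TATA box TATAAA.
Slc25a34, chr4:141623835-141624084, minus strand: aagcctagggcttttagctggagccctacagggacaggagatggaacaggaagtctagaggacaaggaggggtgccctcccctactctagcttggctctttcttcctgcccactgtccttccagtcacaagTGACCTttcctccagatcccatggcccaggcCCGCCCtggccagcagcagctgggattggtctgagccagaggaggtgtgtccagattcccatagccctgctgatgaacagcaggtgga
Slc26a10, chr10:127180583-127180832, minus strand: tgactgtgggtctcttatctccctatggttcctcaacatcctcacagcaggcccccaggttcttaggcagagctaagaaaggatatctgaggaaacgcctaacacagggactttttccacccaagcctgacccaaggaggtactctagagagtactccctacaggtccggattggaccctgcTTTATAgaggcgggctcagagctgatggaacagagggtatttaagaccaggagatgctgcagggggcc
Slc3a1, chr17:85028097-85028346, plus strand: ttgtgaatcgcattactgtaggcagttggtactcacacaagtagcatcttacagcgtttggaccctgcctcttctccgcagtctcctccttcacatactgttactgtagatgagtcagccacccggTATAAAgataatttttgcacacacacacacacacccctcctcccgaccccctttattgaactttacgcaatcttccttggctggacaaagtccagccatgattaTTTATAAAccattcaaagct
Slc25a13, chr6:6217174-6217423, minus strand: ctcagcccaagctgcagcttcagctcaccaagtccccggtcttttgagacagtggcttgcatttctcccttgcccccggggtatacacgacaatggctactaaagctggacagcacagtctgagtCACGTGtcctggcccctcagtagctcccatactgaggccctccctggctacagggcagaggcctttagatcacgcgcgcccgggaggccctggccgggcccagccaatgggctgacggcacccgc
In Slc25a34 the half-site lay 119 to 114 bases before the start and a GC box 88 to 83 bases before it, both on the opposite strand. In Slc26a10 a TATA box on the opposite strand lay 68 to 63 bases before the start. The E-box of Slc25a13 lay 125 to 120 bases before its start. In Slc3a1 a TATA box lay 18 to 13 bases before the start, overlapping a match on the opposite strand, and another lay 124 to 119 bases before it. Over all 32851 windows of the promoter table, 14.0% held the half-site, 6.02% the E-box, 32.7% the GC box and 12.4% the TATA box. The 111 windows of the 80 transporters that had one held them in 18.9%, 17.1%, 63.1% and 7.21%. These are matches of letters in a window and say nothing of binding.

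The table is dominated by a few transcripts, and this sets the scale on which every transporter is read. The 13 mitochondrially encoded genes took 48.2% to 61.9% of the summed FPKM in Saline, 62.2% to 83.3% in DOX, 37.9% to 48.7% in DOX + K35 and 50.01% to 68.0% in DOX + K27. Over all tested genes the median log2 fold change was -0.34 for DOX against Saline and 0.46 for DOX + K35 against DOX, and near 0 after each library was centred on its own median. Calls are therefore given on the deposited FPKM and also under 5 other scalings (mitochondrially encoded genes left out, the 20 highest genes left out, median-ratio scaling, quantile normalization and centring on the library median). Hepatocyte markers were present, with Apoa1, Tat and Cps1 summing to 5774 to 10649 FPKM over the 12 libraries, mostly Apoa1. In DOX + K35 against DOX, where 46.0% of all genes rose and 10.7% fell, Cps1 (1.77 ± 0.39) and Tat (0.95 ± 0.32) rose, and Apoa1 (-0.45 ± 0.29) did not pass (limma, adjusted p = 0.20). The sum of 4 Kupffer cell markers was 6.48 to 20.1 FPKM in the DOX libraries, against 32.0 to 87.0 in Saline, 23.2 to 42.5 with K35 and 20.7 to 41.6 with K27, and all 4 rose in DOX + K35 against DOX, as did both endothelial markers and neither of 2 stellate markers. The 4 haemoglobin transcripts summed to 821 to 1135 FPKM in DOX, against 330 to 506 in Saline, 62.2 to 596 with K35 and 452 to 1072 with K27, and all 4 fell in DOX + K35 against DOX. The part of these shifts in the transporter results was not tested, and in bulk tissue fewer cells of a type and less RNA per cell cannot be told apart.

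The transporters spanned a wide range of levels. Their median group mean was 4.73 FPKM in DOX, against 8.32 in Saline, 9.27 with K35 and 8.16 with K27. The most abundant were Slc25a47, a mitochondrial carrier enriched in liver, at 381 ± 52.8 FPKM in Saline (SD, n = 3), Slc27a2, a very long-chain acyl-CoA synthetase, at 420 ± 71.4, and Slc27a5, the bile acid-CoA ligase of the same family, at 290 ± 63.7. In 45 of the 91 (49.5%) the mean was lowest in DOX and highest in DOX + K35, against 41.4% of all tested genes. In another 12 (13.2%, against 14.2% of all genes) DOX was the highest group and DOX + K35 the lowest. DOX library B4 held the lowest value of 57 members, and 41 members (45.1%) were more than 2-fold below the mean of the other DOX libraries there, as were 39.3% of all genes. DOX replicate 1 held 22 members (24.2%) more than 2-fold above the other DOX libraries, and 21.9% of all genes. In library C4 of DOX + K35, 10 members were more than 2-fold above and 9 more than 2-fold below replicates 1 and 2, against 10.3% and 8.3% of all genes.

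**Figure D1:**
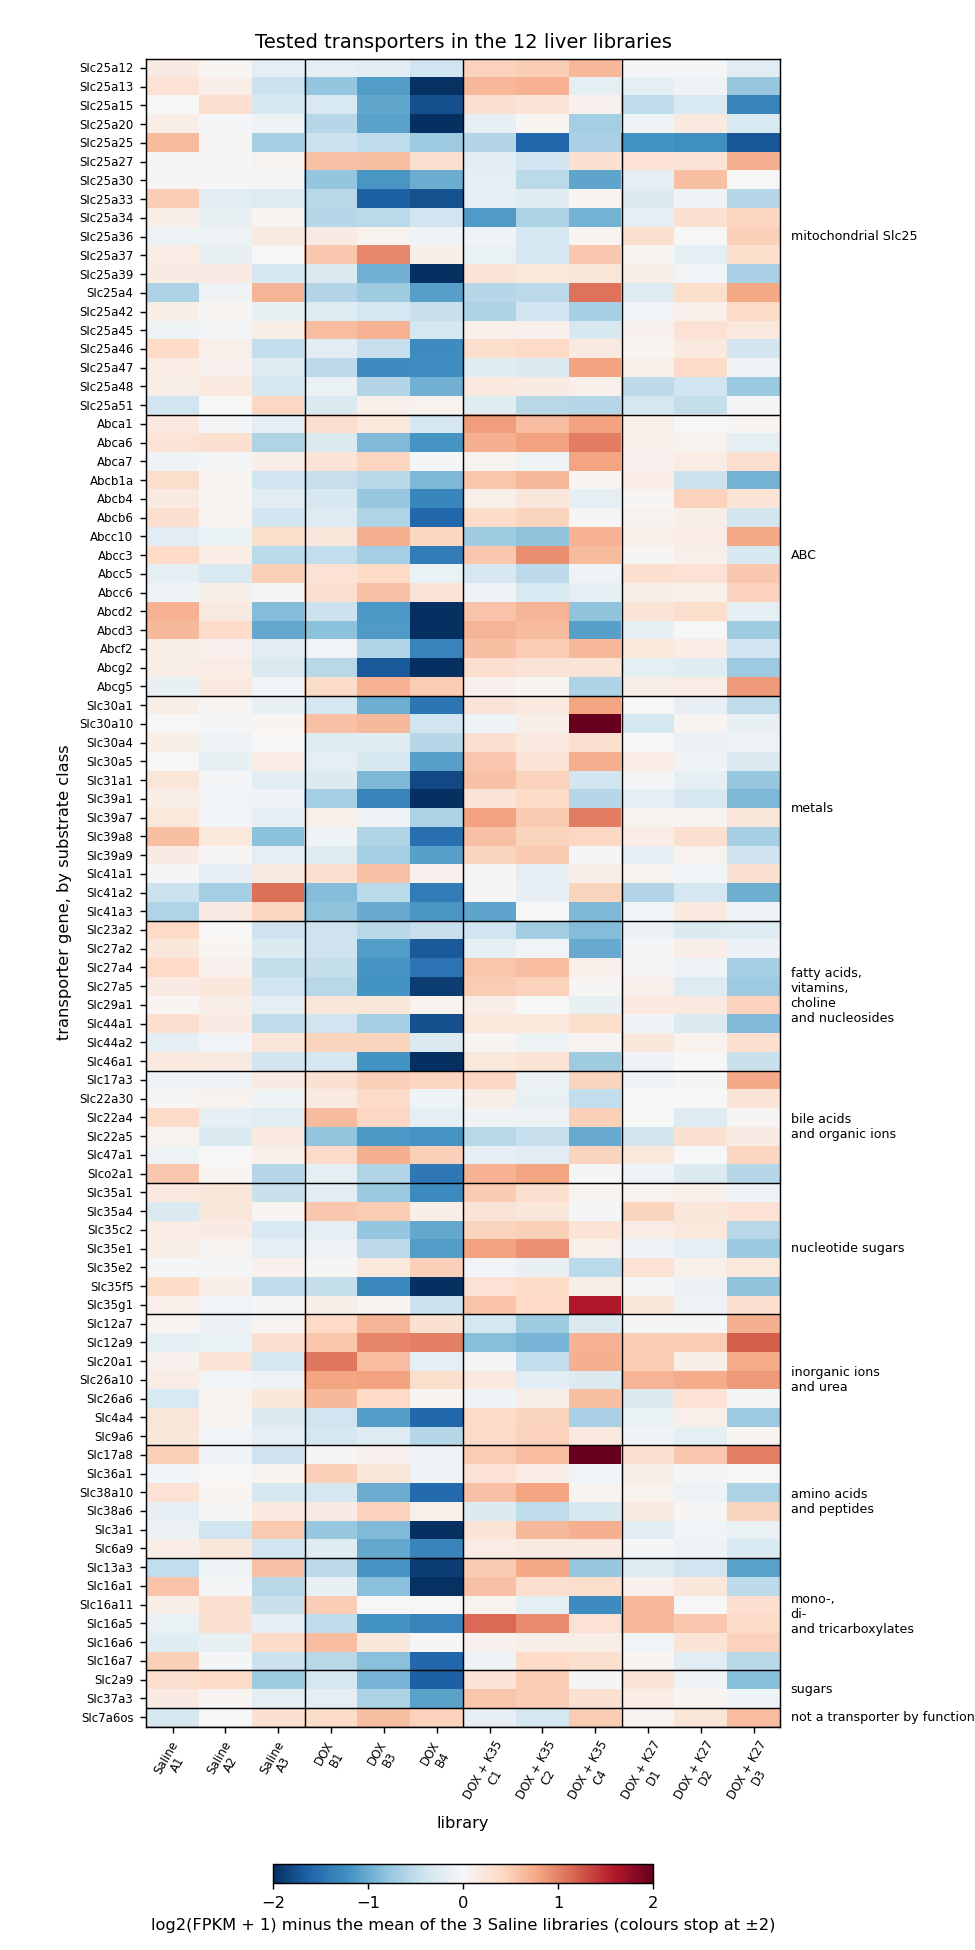
Each row is 1 of 89 tested transporters, ordered by substrate class, and each column 1 of the 12 libraries. Colour gives log2(FPKM + 1) minus the mean of the 3 Saline libraries, with blue lower, red higher and the scale stopped at 2 either way. DOX library B4, lowest for 57 of all 91 tested, is the bluest column, and library C4 differs from the other DOX + K35 libraries for Slc30a10, Slc17a8 and Slc25a4 (higher) and Abcd3 (lower).

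DOX against Saline asks what doxorubicin did, with stomach dosing of vehicle described for DOX only. No transporter passed an adjusted p of 0.05 in limma on the deposited FPKM, where 0.0301% of all genes were called higher and 0.151% lower. At an unadjusted p under 0.05, 48 members were lower and 3 higher, against 40.1% and 7.27% of all genes. Every DOX library lay below every Saline library for 28 members (23.0% of all genes) and above for 9 (12.3%). The members' median log2 fold change was -0.63, that of all tested genes -0.34. After centring on the library median, 14 members were called higher (17.1% of all genes) and 13 lower (11.8%). On the deposited FPKM the count of 0 rests on single libraries, since without Saline replicate 3 there were 39 falls (31.3% of all genes) and without DOX replicate 1 there were 46 (41.9%). With the replicate number as a block, in the 9 libraries that carry one, 3 were higher (2.62% of all genes) and 6 lower (7.33%).

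Members with the smallest p-values in that comparison were lower in every DOX library than in any Saline library. Abcg2, an ABC exporter of urate, porphyrins and drugs, stood at 15.0, 15.2 and 10.9 FPKM in Saline and at 8.89, 3.54 and 1.76 in DOX, a log2 fold change of -1.54 ± 0.37 (SE, limma adjusted p = 0.061). Slc25a33, a mitochondrial pyrimidine nucleotide carrier, read 10.9, 6.23 and 6.10 FPKM against 4.79, 1.73 and 1.53 (-1.31 ± 0.31). Slc22a5, the carnitine importer of the plasma membrane, read 10.2, 7.87 and 11.2 FPKM against 5.20, 3.81 and 3.69 (-1.04 ± 0.25). None of them passed the threshold on the deposited FPKM, but after centring on the library median Abcg2 and Slc25a33 did, with log2 fold changes of -1.21 and -0.98.

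The classes did not sit together in that comparison. Carriers of fatty acids, vitamins, choline and nucleosides had a median log2 fold change of -0.997 over 8 members (-0.66 after centring on the library median), and the mono-, di- and tricarboxylate carriers -0.99 over 6 (-0.65). Inorganic ion carriers had a median of 0.46 over 7 members (0.79 after centring), and bile acid and organic ion carriers 0.16 over 7 (0.49). In the ion class, Slc26a10, of an anion exchanger family, was at 3.15, 2.59 and 2.46 FPKM in Saline and 5.45, 5.48 and 3.76 in DOX (0.65 ± 0.21, limma adjusted p = 0.061). Slc12a7, a potassium-chloride cotransporter, was at 23.8, 21.2 and 23.8 FPKM in Saline and 30.6, 37.2 and 28.5 in DOX. Both passed the threshold as higher in DOX after centring on the library median, with 0.98 and 0.79 on the log2 scale, and the groups did not overlap.

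**Figure D2:**
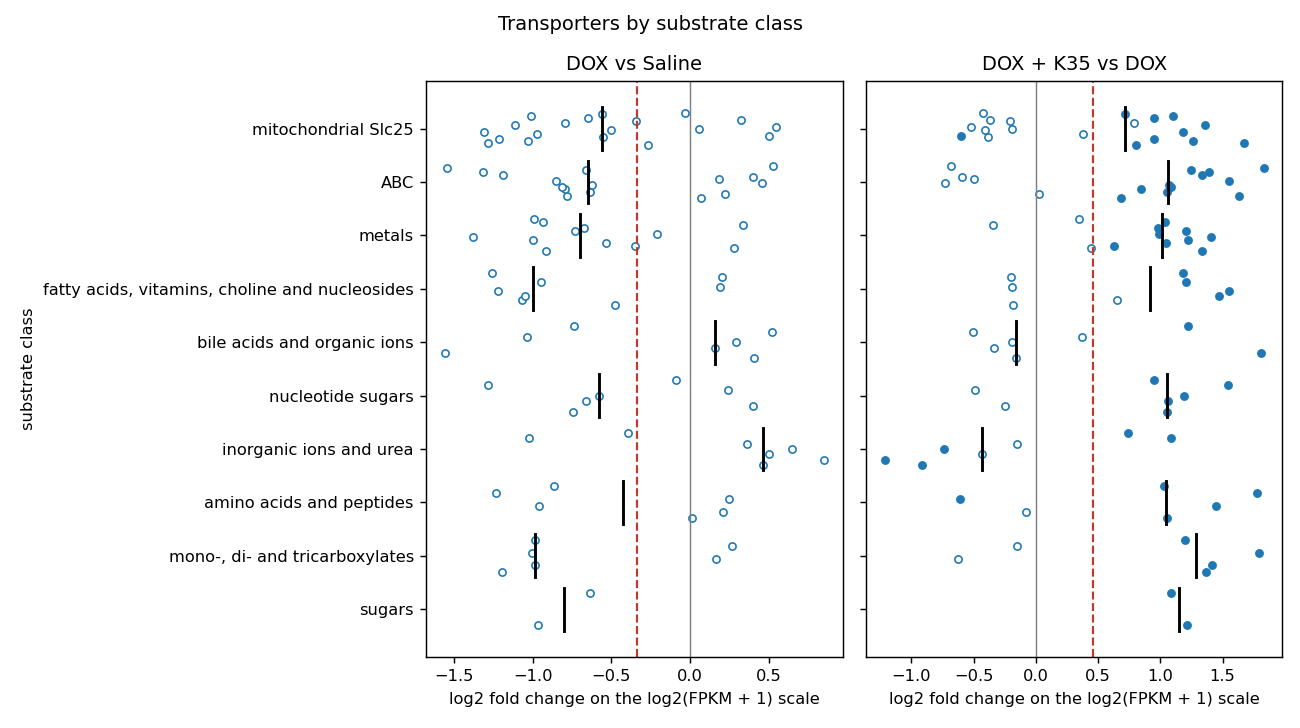
Points are single transporters (the gene Slc7a6os, which is not a transporter, is left out), placed by log2 fold change on the log2(FPKM + 1) scale for DOX vs Saline (left) and DOX + K35 vs DOX (right), with filled points past a limma adjusted p of 0.05. Black bars are class medians and the red dashed line is the median of all 3317 genes. Inorganic ion carriers lie to the right of that line on the left and to its left on the right.

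DOX + K35 against DOX asks whether K35 changed the doxorubicin-treated liver, and it moved the most transporters. On the deposited FPKM, 52 of 91 rose and 5 fell (limma, adjusted p under 0.05), against 46.0% of all genes higher and 10.7% lower. The balance depended on the scaling, with 35 higher and 31 lower after centring on the library median (37.4% and 40.7% of all genes) and 24 higher and 32 lower without the 20 highest genes (27.9% and 42.8%). In all 6 scalings 22 rose (26.6% of all genes did) and 5 fell (10.1%). These shares of members, 24.2% and 5.49%, lie near or below those of all genes. Without overlap, 45 were higher in every DOX + K35 library (44.3% of all genes) and 8 lower (15.4%). Without DOX library B4, 35 rose and 8 fell on the deposited FPKM (37.8% and 11.8% of all genes).

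**Figure D3:**
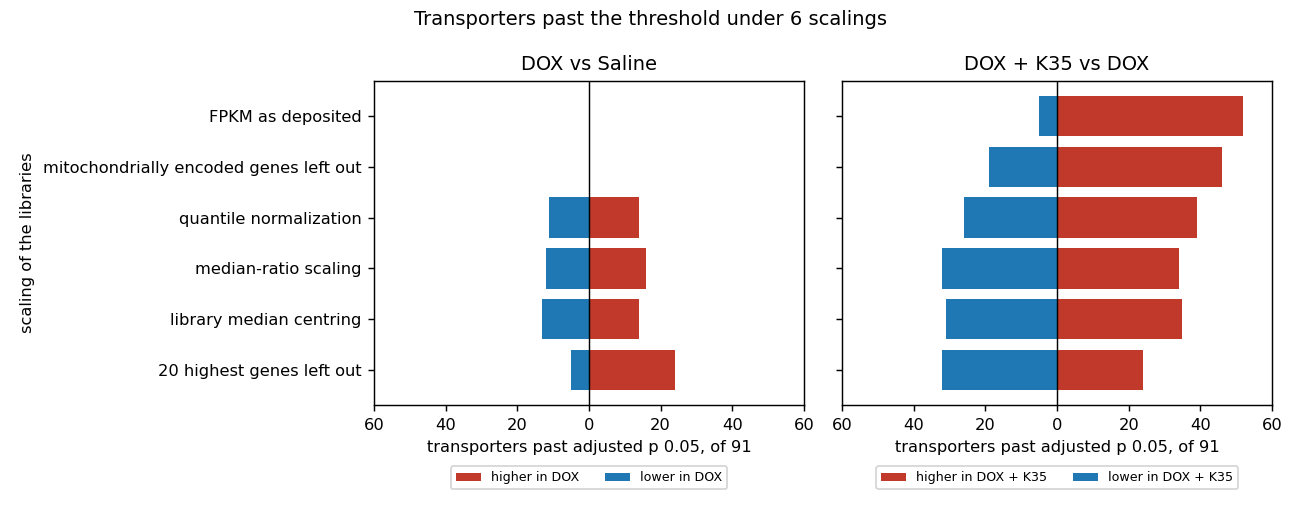
Bars count the transporters, of 91, past a limma adjusted p of 0.05 as higher (right of 0, red) or lower (left of 0, blue) under 6 scalings of the libraries, for DOX vs Saline and for DOX + K35 vs DOX. On the deposited FPKM none is called in the first comparison and 52 rises and 5 falls in the second, which become 35 and 31 after centring on the library median.

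ABC transporters rose in 11 of 16 tested members and fell in none (46.0% and 10.7% of all genes), with a median log2 fold change of 1.06. After centring on the library median 6 were higher and 4 lower (37.4% and 40.7% of all genes). In all 6 scalings 5 rose (26.6% of all genes). No class was tested against these shares. Abcg2 (GRCm38 chromosome 6, 58584523 to 58695676, plus strand) read 17.3, 16.5 and 16.4 FPKM in DOX + K35, above each of its DOX values, a rise of 1.83 ± 0.37 on the log2 scale (limma adjusted p = 0.0050). Abca6, of the lipid-transporting A subfamily, read 11.3, 7.18 and 5.67 FPKM in DOX and 23.7, 25.3 and 29.8 in DOX + K35, a rise of 1.63 ± 0.31. Abcc3, which exports glucuronides and bile acids to the blood, read 19.9, 17.3 and 10.1 FPKM against 41.4, 54.9 and 44.3, a rise of 1.55 ± 0.33. For all 3 genes the DOX + K35 libraries also lay above every Saline library. Abcf2, which belongs to the F subfamily and has no membrane-spanning part, rose by 1.25 ± 0.30, also in all 6 scalings.

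Other ABC genes rose by less or only on the deposited scale. Abcb4, which moves phosphatidylcholine into bile, read 36.4, 26.5 and 18.0 FPKM in DOX and 49.0, 53.9 and 40.4 in DOX + K35 (0.85 ± 0.31, limma adjusted p = 0.030). It passed in 1 of 6 scalings. Abca1, which loads cholesterol onto apolipoprotein A-I, read 11.8, 10.7 and 7.06 FPKM in DOX and 17.1, 14.5 and 16.8 in DOX + K35 (0.68 ± 0.24), and also passed in 1 of 6 scalings. Without DOX library B4 the difference was 0.59 for Abcb4 and 0.48 for Abca1, neither past the threshold, and Abca1 also lost the call without DOX + K35 replicate 1 and Abcb4 without DOX library B3 or DOX + K35 replicate 1 or 2. With the replicate number as a block, Abcb4 did not pass (0.42). The drug exporter Abcb1a rose by 1.05 ± 0.28 and passed in 5 of 6. Abcd3, the peroxisomal importer of fatty acyl groups and the most abundant ABC gene, shows library C4 apart, at 159, 153 and 46.2 FPKM in DOX + K35 against 55.6, 44.8 and 24.0 in DOX (1.39 ± 0.53), with overlapping groups. The call on Abcd3 was lost without DOX library B3 (1.49) or B4 (1.05) and without DOX + K35 replicate 1 (1.09) or 2 (1.12). Abcg5, which pairs with Abcg8 in sterol export and overlaps it on the opposite strand, read 62.4, 78.5 and 68.3 FPKM in DOX and 50.9, 49.9 and 30.9 in DOX + K35 (-0.68 ± 0.32, limma adjusted p = 0.079). Abcc6, needed for ATP release by hepatocytes, read 54.0, 64.0 and 51.8 against 40.2, 34.1 and 37.2 (-0.59 ± 0.27, adjusted p = 0.071). Neither passed on the deposited FPKM, both passed as lower in the other 5 scalings, and the groups did not overlap.

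Mitochondrial Slc25 carriers split. Of 19 tested, 9 rose and 1 fell (46.0% and 10.7% of all genes), with a median of 0.72. After centring 5 were higher and 8 lower (37.4% and 40.7% of all genes). Slc25a13, the aspartate-glutamate carrier of the malate-aspartate shuttle and the urea cycle, read 25.7, 20.1 and 10.7 FPKM in DOX and 71.4, 72.7 and 39.2 in DOX + K35, a rise of 1.68 ± 0.38 (limma adjusted p = 0.0057). Slc25a39, needed for glutathione import, read 157, 97.8 and 43.6 FPKM against 231, 221 and 225, a rise of 1.36 ± 0.42. These and Slc25a33 (1.19 ± 0.31) rose in all 6 scalings, with all DOX + K35 libraries above all DOX libraries. The ornithine carrier Slc25a15 rose by 1.26 ± 0.39 and passed in 5 scalings. The carnitine-acylcarnitine carrier Slc25a20 read 35.8, 25.0 and 12.6 FPKM in DOX and 48.0, 55.0 and 33.1 in DOX + K35 (0.95 ± 0.36), with overlapping groups and a call in 1 scaling, lost without DOX library B4 (0.55) or B3 and without DOX + K35 replicate 1 or 2. Slc25a47, which overlaps the microRNA gene Mir345, rose by 1.10 ± 0.37 on the deposited FPKM and in no other scaling, at 262, 157 and 159 FPKM in DOX against 318, 309 and, in library C4, 663. Without C4 it was 0.74, past no threshold, and the call was also lost without DOX library B3. With the replicate number as a block, in libraries that leave out B3, B4 and C4, Slc25a15 (0.53), Slc25a33 (0.44), Slc25a20 (0.45) and Slc25a47 (0.23) did not pass. Slc25a27, an uncoupling protein relative, fell in all 6 scalings, from 1.98, 1.99 and 1.46 FPKM to 0.680, 0.513 and 1.45 (-0.60 ± 0.20), and kept the call in 8 of 12 fits that leave out 1 library.

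Amino acid carriers rose in 4 of 6 members and fell in 1 (46.0% and 10.7% of all genes). After centring 3 were higher and 2 lower (37.4% and 40.7% of all genes). Slc3a1, the heavy subunit of the carrier of cystine and dibasic amino acids, read 5.57, 5.07 and 1.67 FPKM in DOX and 12.5, 16.5 and 17.2 in DOX + K35, a rise of 1.78 ± 0.34 (limma adjusted p = 0.0050) in all 6 scalings. The gene Prepl shares exon positions with it on the opposite strand, and the table does not say whether strand was used in counting. Slc38a10, the most abundant of the class, rose by 1.44 ± 0.33 in all 6 scalings. Slc38a6, of the neutral amino acid family, went the other way, from 3.52, 4.56 and 3.34 FPKM to 2.34, 1.85 and 2.22 (-0.61 ± 0.19, adjusted p = 0.0155), also in all 6, though not without DOX library B3 (-0.50) or DOX + K35 replicate 2 (-0.54).

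Carriers of mono-, di- and tricarboxylates had the highest class median, 1.29 over 6 members, of which 4 rose (46.0% of all genes did). After centring 3 were higher and 2 lower (37.4% and 40.7% of all genes). Slc16a5 (GRCm38 chromosome 11, 115462474 to 115474398, plus strand), of the monocarboxylate transporter family, read 7.85, 4.53 and 4.07 FPKM in DOX and 26.6, 23.2 and 14.4 in DOX + K35, a rise of 1.79 ± 0.29 (limma adjusted p = 0.0050). The lactate and pyruvate carrier Slc16a1 read 5.70, 3.15 and 0.887 FPKM against 10.1, 8.40 and 8.44, a rise of 1.41 ± 0.40. Both rose in all 6 scalings and after leaving out any 1 library. Of the sugar class, Slc37a3 rose by 1.09 ± 0.22 in all 6 scalings and the urate carrier Slc2a9 by 1.22 ± 0.39 in 3, the latter not without DOX library B4 (0.88) or DOX + K35 replicate 2 (1.09).

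Fatty acid, vitamin, choline and nucleoside carriers rose in 4 of 8 members (46.0% of all genes rose). After centring 3 were higher and 3 lower (37.4% and 40.7% of all genes). Slc27a5 read 194, 124 and 75.6 FPKM in DOX and 408, 394 and 290 in DOX + K35, a rise of 1.55 ± 0.39 (limma adjusted p = 0.0065) in all 6 scalings. Its relative Slc27a2 read 310, 192 and 130 FPKM against 366, 399 and 205, with overlapping groups and no call. Metal carriers rose in 9 of 12 and fell in none (46.0% and 10.7% of all genes). After centring 7 were higher and 1 lower (37.4% and 40.7% of all genes). The zinc exporter Slc30a1 rose by 1.34 ± 0.28 and the zinc importer Slc39a1 by 1.40 ± 0.36, both in all 6 scalings. The copper importer Slc31a1, the most abundant metal carrier, rose by 1.22 ± 0.40 and passed in 3, but not without DOX library B4 (0.81) or DOX + K35 replicate 1 (1.03) or 2 (1.098). The manganese exporter Slc30a10 showed the odd library, at 4.20, 4.38 and 1.61 FPKM in DOX and 2.24, 2.72 and, in C4, 14.3 in DOX + K35. Nucleotide sugar carriers rose in 5 of 7 (46.0% of all genes rose), with 4 higher and 2 lower after centring (37.4% and 40.7%). Among those that rose was the orphan Slc35f5, by 1.54 ± 0.37 in all 6 scalings. Slc35e2, the most abundant of the class, read 13.9, 15.8 and 19.4 FPKM in DOX and 13.0, 12.2 and 9.02 in DOX + K35. It did not overlap and had no call on the deposited FPKM.

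Bile acid and organic ion carriers were the class with few calls, 2 higher of 7 (46.0% of all genes) and a median of -0.16. After centring 2 were higher and 3 lower (37.4% and 40.7% of all genes). Slco2a1, a prostaglandin carrier, rose by 1.22 ± 0.35 in 5 scalings. Slc47a1, which exports organic cations, read 67.8, 85.2 and 72.5 FPKM in DOX and 46.1, 44.1 and, in C4, 71.2 in DOX + K35, and passed as lower in the 5 scalings other than the deposited one.

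Inorganic ion carriers were the class with the most falls, 3 of 7, beside 2 rises (10.7% and 46.0% of all genes). After centring 0 were higher and 5 lower (37.4% and 40.7% of all genes). Slc12a7 (GRCm38 chromosome 13, 73733094 to 73816754, plus strand) fell from 30.6, 37.2 and 28.5 FPKM in DOX to 17.7, 13.6 and 18.5 in DOX + K35 (-0.91 ± 0.28, limma adjusted p = 0.013). Slc26a10 fell from 5.45, 5.48 and 3.76 FPKM to 3.28, 2.23 and 2.09 (-0.74 ± 0.21, adjusted p = 0.0087). Slc12a9, of the same family as Slc12a7, read 9.38, 12.8 and 13.2 FPKM in DOX and 2.90, 2.70 and, in C4, 10.5 in DOX + K35 (-1.21 ± 0.38), so that 1 DOX + K35 library reached into the DOX range. All 3 fell in all 6 scalings, Slc26a10 in each of 12 fits that leave out 1 library and the other two in 10 of 12. Slc12a7 did not pass without DOX library B3 (-0.80) or DOX + K35 replicate 2 (-0.78). Slc26a10 shares exon positions with B4galnt1 on the opposite strand.

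**Figure D4:**
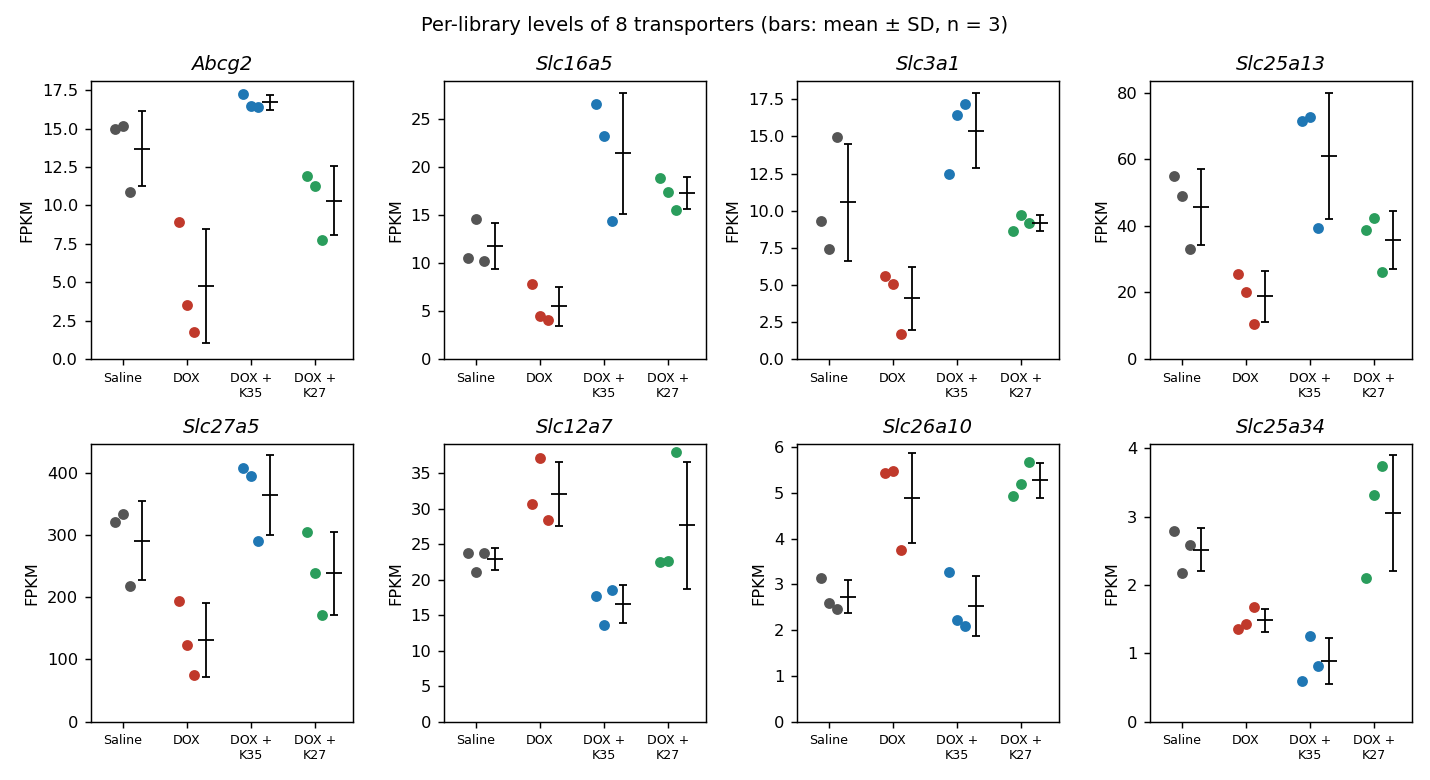
Points are single libraries (y axis, FPKM from 0) of 8 transporters in the 4 groups, and bars give the mean ± SD of 3 libraries. The means of Abcg2, Slc16a5, Slc3a1, Slc25a13 and Slc27a5 are lowest in DOX and highest in DOX + K35, those of Slc12a7 and Slc26a10 are lowest in DOX + K35, and Slc25a34 is lower in DOX + K35 than in DOX + K27.

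Genes of the pathways that the carriers serve were read beside them on the deposited FPKM, where 46.0% of all genes rose. Of 9 tested genes of the carnitine shuttle and mitochondrial fatty acid oxidation, 7 rose and none fell in DOX + K35 against DOX, among them Hadha by 2.13 ± 0.54. Of 7 partners of cholesterol export and lipoprotein assembly, 6 rose, among them Apob by 1.54 ± 0.43. All 4 tested genes of iron and copper handling rose, among them Trf, the iron carrier of plasma, by 2.04 ± 0.56. Of 5 genes of the urea cycle and amino acid breakdown, 4 rose, Cps1 by 1.77 ± 0.39. In bile acid synthesis, Klb, the co-receptor of Fgf15, rose by 1.29 ± 0.39, whereas Cyp7a1 (-0.26 ± 0.52) and Cyp8b1 (0.50 ± 0.68) did not pass. Of 6 genes of glucose handling, 2 rose, Fbp1 and Pygl, and Mlxipl fell. In the other comparisons no gene of these lists was called, except Tfrc, the transferrin receptor, higher in DOX + K35 than in DOX + K27.

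DOX + K27 against DOX asks the same of the analog. No transporter passed an adjusted p of 0.05 in limma on the deposited FPKM (0.0603% of all genes higher, 0.00% lower) or in the other 5 scalings. At an unadjusted p under 0.05, 35 were higher and 1 lower, against 28.0% and 1.30% of all genes. Without overlap, 24 were higher (15.9%) and 1 lower (2.68%), and the members' median was 0.49 against 0.36 for all genes. Without DOX replicate 1, 34 members were called higher (32.3% of all genes). The smallest p-value belonged to Slc16a5, at 18.9, 17.4 and 15.5 FPKM in DOX + K27 against 7.85, 4.53 and 4.07 in DOX (1.53 ± 0.29, adjusted p = 0.092). Slc25a30, a mitochondrial carrier, followed at 3.55, 6.90 and 4.20 FPKM against 2.05, 1.33 and 1.64 (1.11 ± 0.25), then Slc22a5 at 7.30, 12.2 and 10.9 against 5.20, 3.81 and 3.69 (1.07 ± 0.25). For these 3 genes every DOX + K27 library lay above every DOX library. Slc25a25, the mitochondrial ATP-Mg and phosphate carrier, was the 1 member lower at that p, at 22.6, 22.1 and 15.8 FPKM against 39.3, 37.1 and 32.0 (-0.82 ± 0.37).

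K35 and K27 were given at the same dose on the same days, so the analogs can be compared directly, as 1 pair with p-values adjusted over all 3317 genes. On the deposited FPKM 2 transporters were lower in DOX + K35 (1.69% of all genes) and none higher (0.422%), and after centring on the library median 3 were lower (4.70%) and 4 higher (5.06%). At an unadjusted p under 0.05, 16 were higher (14.7%) and 13 lower (13.6%), and without overlap 28 were higher (30.6%) and 13 lower (18.9%). Slc25a34, a mitochondrial carrier whose substrate is not settled, was at 0.600, 1.25 and 0.814 FPKM in DOX + K35 and at 2.11, 3.32 and 3.74 in DOX + K27. The difference was -1.09 ± 0.20 on the log2 scale (95% interval -1.52 to -0.67, limma adjusted p = 0.016). In Saline it stood at 2.79, 2.18 and 2.59 FPKM and in DOX at 1.35, 1.42 and 1.68. Slc26a10 was at 3.28, 2.23 and 2.09 FPKM in DOX + K35 and at 4.94, 5.20 and 5.68 in DOX + K27, a difference of -0.84 ± 0.21 (-1.28 to -0.40, adjusted p = 0.049). Neither gene overlapped between the groups, and both passed in all 6 scalings. Leaving out 1 library kept Slc25a34 past the threshold in 10 of 12 fits (not without DOX + K35 replicate 1, -0.98, or DOX + K27 replicate 2, -1.04), with an adjusted p of up to 0.061, and Slc26a10 in 3 of 12, with up to 0.16. A fit of only these groups called neither. With the replicate number as a block, in the 9 libraries that carry one, both passed (-1.002 and -0.755) and the count went from 2 to 36, with 25 higher (25.1% of all genes) and 11 lower (18.5%). The same 9 libraries without the block gave 11 higher (9.26%) and 6 lower (11.2%).

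The levels of the other members differed less surely. Of the 91 intervals of DOX + K35 minus DOX + K27, 62 included 0, 16 lay wholly above it and 13 wholly below. The half-widths ran from 0.34 to 1.19 with a median of 0.63. Of all 91, 35 intervals lay within 1 of 0 on the log2(FPKM + 1) scale, and the others reached further. For low genes 1 on this scale is more than a 2-fold difference in FPKM. Among the named members whose values were lower with K35 but did not pass were Slc22a5 (-0.71, -1.25 to -0.16) and Slc25a30 (-0.73, -1.26 to -0.19), described above. Slc25a42, the mitochondrial coenzyme A carrier, chosen after its values were seen, read 14.5, 17.1 and 14.0 FPKM with K35 and 21.7, 24.4 and 29.9 with K27 (-0.69, -1.22 to -0.17). On the other side stood Slc25a15 (0.94, 0.11 to 1.77), Abca6 (0.85, 0.20 to 1.51), Abcb1a (0.82, 0.23 to 1.41) and Abca1, at 17.1, 14.5 and 16.8 FPKM with K35 and 9.87, 9.02 and 9.45 with K27 (0.71, 0.20 to 1.22). These last 4 passed with the replicate number as a block. Slc16a5 differed by 0.26 (-0.38 to 0.89) and Slc25a47 by -0.05 (-0.84 to 0.75). In the libraries of the block, which leave out C4, Slc25a47 differed by -0.52 with the block and by -0.41 without it. The class medians ran from -0.39 for inorganic ion carriers to 0.54 for metal carriers, with 0.09 for all genes.

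**Figure D5:**
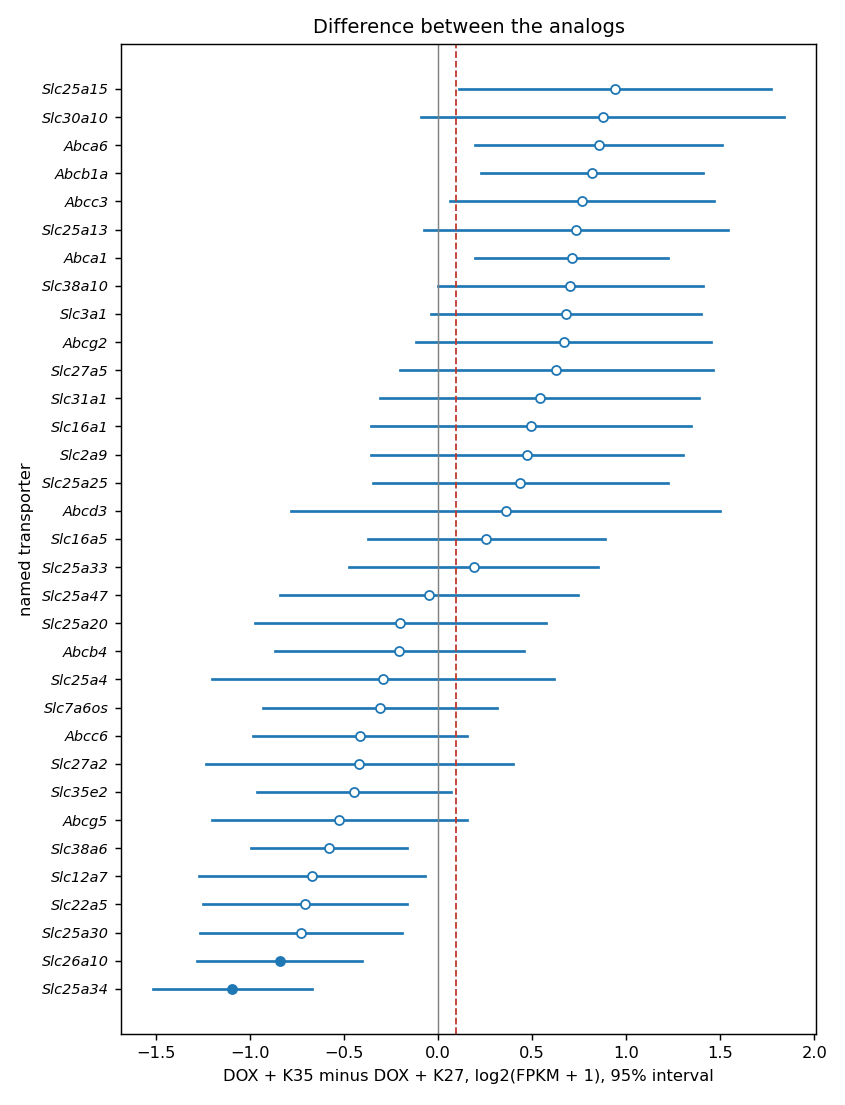
Points give DOX + K35 minus DOX + K27 on the log2(FPKM + 1) scale for 33 named transporters, lines the 95% interval from limma, and filled points an adjusted p under 0.05. The red dashed line is the median of all genes, 0.09, and only Slc25a34 (-1.09) and Slc26a10 (-0.84) are filled.

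The 9 members under a mean of 1 FPKM entered only the fit without that filter. There, 55 of 100 members rose and 7 fell in DOX + K35 against DOX (41.4% and 11.5% of all genes). Among the low members Abcc4, an exporter of cyclic nucleotides and bile acids, read 0.363, 0.288 and 0.147 FPKM in DOX and 1.55, 1.38 and 2.34 in DOX + K35. Abca5, of the same subfamily as Abca6, read 0.381, 0.354 and 0.164 against 0.532, 0.770 and 1.06. The mean of Slc39a6 was also higher in DOX + K35 than in DOX. The means of Abcg3, Slc12a5, Slc4a3, Slc4a10, Slc39a2 and Slc25a35 were lower. Of these, Slc4a10 read 0.172, 0.313 and 0.220 FPKM in DOX and 0.0362, 0.0280 and 0.119 in DOX + K35. Slc7a6os met the symbol rule but is named for lying opposite Slc7a6 and is not a carrier. It read 18.4, 21.8 and 19.5 FPKM in DOX and 12.3, 10.7 and, in C4, 20.3 in DOX + K35.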

How the data were processed

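Poly-T selected RNA of 12 livers was sequenced on an Illumina instrument. The submitters' processing notes name HISAT2, DESeq2, edgeR and the build GRCm38, without versions or roles. The authors deposited 1 table of length-scaled values per gene and library, read here as FPKM, although its header names no unit. It holds no counts, so depth and counting error are unknown. The titles number each group 1 to 3, whereas the DOX columns are B1, B3 and B4 and the K35 columns C1, C2 and C4, so those with other numbers, and B3, were taken as libraries of their group without a number.

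Values were taken as log2(FPKM + 1), a scale that understates changes of low genes. Those genes whose mean reached 1 FPKM entered a fit over all 12 libraries in limma 3.58.1 (R 4.3.3, trend), with Benjamini-Hochberg adjustment over 3317 genes in each of 4 comparisons. The code was tested on simulated data. Positions came from GENCODE M21. The 3 markers of 6 for hepatocytes, and those of Kupffer, endothelial, stellate and erythroid cells, were summed and compared by exact permutation tests, which cannot go below 0.1 here. No cholangiocyte, neutrophil or lymphocyte marker was in the table.

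The members and lists were chosen with earlier results of these data known. Genes named are those of a list of liver transporters, up to 3 rises and 3 falls a comparison among calls without overlap (otherwise the 3 smallest p-values), and the highest of each class, in all 34. Others were chosen after their values were seen. Slc7a6os was set apart from the classes. Some members are not reported here singly and count only in totals and class values. Alternatives were a pseudocount of 0.1, no filter, 4 scalings, only the 2 groups, a replicate block (deviations of all 10 pairs of same-numbered libraries correlated at 0.109 to 0.474, those of other pairs at -0.679 to 0.559), leaving out each library, stricter thresholds and, added after seeing the data, library median centring and the libraries of the block without it.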

Additional observations from a re-analysis of the deposited data

How the results depend on the processing

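Counts of transporters past the threshold depended on the scaling. DOX against Saline, with 0 calls, gave 28 under median-ratio scaling, 25 under quantile normalization and 29 without the 20 highest genes. In that order, 17.6%, 15.4% and 26.4% of members were higher, against 18.5%, 11.2% and 28.7% of all genes. Lower were 13.2%, 12.1% and 5.49%, against 11.5%, 8.38% and 3.64% of all genes. The comparison gave 27 after library median centring (17.1% of all genes higher and 11.8% lower) and 0 without the mitochondrially encoded genes. When 1 library was left out it gave 0 to 46, the latter with 41.9% of all genes lower. DOX + K35 against DOX gave 57 (46.0% of all genes higher and 10.7% lower), and 31 at an adjusted p under 0.01. DOX + K27 against DOX gave 0, and 1 in a fit of only those groups (0.181% of all genes higher). When 1 library was left out it gave 0 to 34, the latter with 32.3% of all genes higher. DOX + K35 against DOX + K27, with 2 calls, gave 6 (median-ratio), 5 (quantile), 6 (without the 20 highest genes) and 7 (centring). There 2.23%, 3.80%, 1.09% and 5.06% of all genes were higher, and 4.22%, 2.95%, 6.67% and 4.70% lower. Without the mitochondrially encoded genes 2 were called, both lower (3.03% of all genes). A pseudocount of 0.1 gave 1 (0.211% of all genes higher and 1.30% lower), and a fit of only those groups 0. There were 0 at an adjusted p under 0.01, and 1 with a log2 fold change of at least 1. Leaving out 1 library gave 0 to 7, the latter with 4.37% of all genes higher and 4.13% lower.

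The labels do not say what a replicate number marks. Deviations of same-numbered libraries correlated at over 0.1 in all 10 pairs, but no comparison here has more than 2 of them and differently numbered libraries reached 0.559, so a pairing was not settled. With the replicate number as a block, over the 9 libraries that carry one, DOX + K35 against DOX + K27 gave 36. Of all genes 25.1% were then higher and 18.5% lower. The same libraries without the block gave 17 (9.26% and 11.2% of all genes). DOX then has 1 library, assumed to vary like the others. The calls of DOX against Saline and of DOX + K35 against DOX also depended on the block.

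Sign and call were compared for 104 log2 fold changes of the 34 named transporters, those with an unadjusted p under 0.05, those the rule named for that comparison and all of DOX + K35 against DOX + K27. Of 2288 values under the alternatives, 7 changed sign, none of them past the threshold in either fit. These were, for DOX + K35 against DOX + K27, Slc25a33 (0.19 as deposited, -0.016 without the 20 highest genes and -0.0193 under the block) and, over the fits without 1 library, Slc25a20 (-0.35 to 0.0063, and 0.0063 in the block's libraries without it) and Slc25a47 (-0.41 to 0.14). In 110 a call was lost and in 125 one was gained. The values rest on 3 libraries a group, depth is unknown, and the selection of genes by the authors cannot be undone.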
